A study of Homo sapiens with 6 samples.

Results

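The genes described here encode the main parts of the MHC class I antigen presentation machinery: the heavy chains HLA-B, HLA-C and HLA-E, the light chain B2M, the peptide transporter subunits TAP1 and TAP2, the loading chaperone TAPBP, the trimming enzyme ERAP1 and the transcriptional regulator NLRC5. They were chosen by name, and all 9 were among the 17211 genes listed in the count table. Poly(A) RNA was sequenced from CAOV2 cells, a line from a human ovarian cancer, which the labels call a cell line in some places and primary cells in others. In siYAP, 3 libraries came from cells given an siRNA reagent against YAP. In siNT, 3 libraries came from cells given a non-targeting siRNA. All cells received 100 pmol of siRNA with 6 µL of lipid reagent for 2 days and were collected at day 3, with no interferon or other stimulus named in the labels. The reagents came from different suppliers, so that the supply of the reagent and the loss of YAP cannot be told apart. The titles call the libraries biological replicates without naming the passage or day of each, and the p-values therefore cover only the spread between these libraries, part of which may be technical.

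MHC class I molecules show peptides from inside a cell to CD8 T cells. Proteasomes cut proteins into peptides, the TAP1 and TAP2 pair pumps them into the endoplasmic reticulum, TAPBP (tapasin) bridges the pump to an empty heavy chain bound to B2M, and ERAP1 trims peptides to the length that the groove holds. NLRC5 is a transactivator that works with factors bound to conserved promoter elements of these genes, and interferon signalling is the classical inducer of the whole set. YAP is a transcriptional co-activator restrained by the Hippo kinases, and it acts on DNA through TEAD factors.

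The upstream sequences that such factors read are shown for the genes with a RefSeq promoter window (GRCh38.p14, 250 bases before to 50 after the annotated start), as a view of what these genes share beyond their function. A window was found for 7 of the 9 genes, and HLA-E and NLRC5 had none. Capitals in the HLA-B and HLA-C stretches mark the enhancer A core GGGGATTC, the X2 core TGACGC and the inverted CCAAT box ATTGG or its complement. Capitals in the other stretches mark pairs of GAAA, or of the complement TTTC, with 2 bases between them, the spacing of an interferon-response element. Each is written along its gene's strand.
HLA-B, chr6:31357226-31357361, minus strand: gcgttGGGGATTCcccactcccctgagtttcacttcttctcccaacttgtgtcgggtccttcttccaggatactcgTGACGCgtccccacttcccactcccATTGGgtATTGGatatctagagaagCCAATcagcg
HLA-C, chr6:31272139-31272270, minus strand: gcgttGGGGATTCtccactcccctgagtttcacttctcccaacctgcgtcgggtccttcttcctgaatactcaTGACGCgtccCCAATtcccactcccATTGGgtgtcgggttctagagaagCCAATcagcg
B2M, chr15:44711361-44711400, plus strand: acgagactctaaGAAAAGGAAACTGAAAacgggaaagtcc
TAP1, chr6:32853811-32853850, minus strand: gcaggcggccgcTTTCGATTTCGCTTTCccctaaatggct
TAP2, chr6:32838776-32838809, minus strand: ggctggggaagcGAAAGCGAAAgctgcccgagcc
TAPBP, chr6:33314071-33314110, minus strand: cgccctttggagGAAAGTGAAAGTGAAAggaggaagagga
ERAP1, chr5:96807922-96807955, minus strand: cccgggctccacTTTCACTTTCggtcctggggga

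The HLA-B and HLA-C stretches begin 182 and 178 bases before the annotated start and were identical at 122 of 132 aligned bases, with 4 further bases in gaps. Both strands of all 35116 windows were searched for exact matches only, so a window with a near match counts as lacking the element. The spaced GAAA pair occurred in 3.57% of them and in 5 of the 7 genes (B2M, ERAP1, TAP1, TAP2 and TAPBP), where some capital runs hold overlapping pairs. The X2 core occurred in 9.14% of windows and in HLA-B, HLA-C and TAP2. The inverted CCAAT box occurred in 34.6% of windows and in 5 of the 7 genes (B2M, ERAP1, HLA-B, HLA-C and TAP1). The enhancer A core occurred in 0.888% of windows and in HLA-B and HLA-C. The letters GGAATG, the core that TEAD factors read, occurred in 14.03% of windows and in B2M and ERAP1. These matches describe letters in a reference window and say nothing of binding in these cells.

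Every siYAP library was deeper than every siNT library. Whole reads over the listed genes numbered 29029760 to 31790340 in siYAP and 25478595 to 28928432 in siNT. Listed genes with no read numbered 22 to 32 in siYAP and 70 to 113 in siNT. Values are given as normalized counts, that is, reads divided by a size factor per library. The targeted gene, YAP1, averaged 299.6 ± 24.7 normalized counts in siYAP and 5992 ± 213 in siNT (SD, n = 3 each). A gene was called where limma's test on log2(value + 1) gave a Benjamini-Hochberg adjusted p under 0.05 over the 17200 genes tested. By that rule 4926 genes were higher and 4841 lower in siYAP, and with libraries scaled to equal totals 6050 were higher and 3700 lower. Keratins dominated the epithelial markers, with KRT8 averaging 33087 normalized counts in siYAP and 35206 in siNT. The carcinoma markers PAX8 and MUC16 were low, PAX8 at 17.1 in siYAP and 28.8 in siNT and MUC16 at 14.2 in siYAP and 11.9 in siNT. WT1, WFDC2 and SOX17 were not found by symbol among the listed genes.

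The class I genes differed between siYAP and siNT in both directions and not as a block. TAPBP, NLRC5, ERAP1, TAP1 and HLA-B were higher in siYAP, TAP2, B2M and HLA-C were lower, and HLA-E did not pass the test. Thus 8 of 9 genes were called, beside 56.8% of all tested genes, with 5 higher, beside 28.6%, and 3 lower, beside 28.1%. The siYAP and siNT libraries did not overlap for any of the 9 genes, with siYAP above in 6 and below in 3, whereas 61.5% of all tested genes did not overlap. Their median log2 fold change was 0.34, against 0.00 over all genes, and their median absolute log2 fold change was 0.39, against 0.30 over all tested genes. The called changes lay between 71.2% and 148% of the siNT mean. In bulk RNA, fewer cells expressing a gene and less RNA per cell cannot be told apart.

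**Figure D1:**
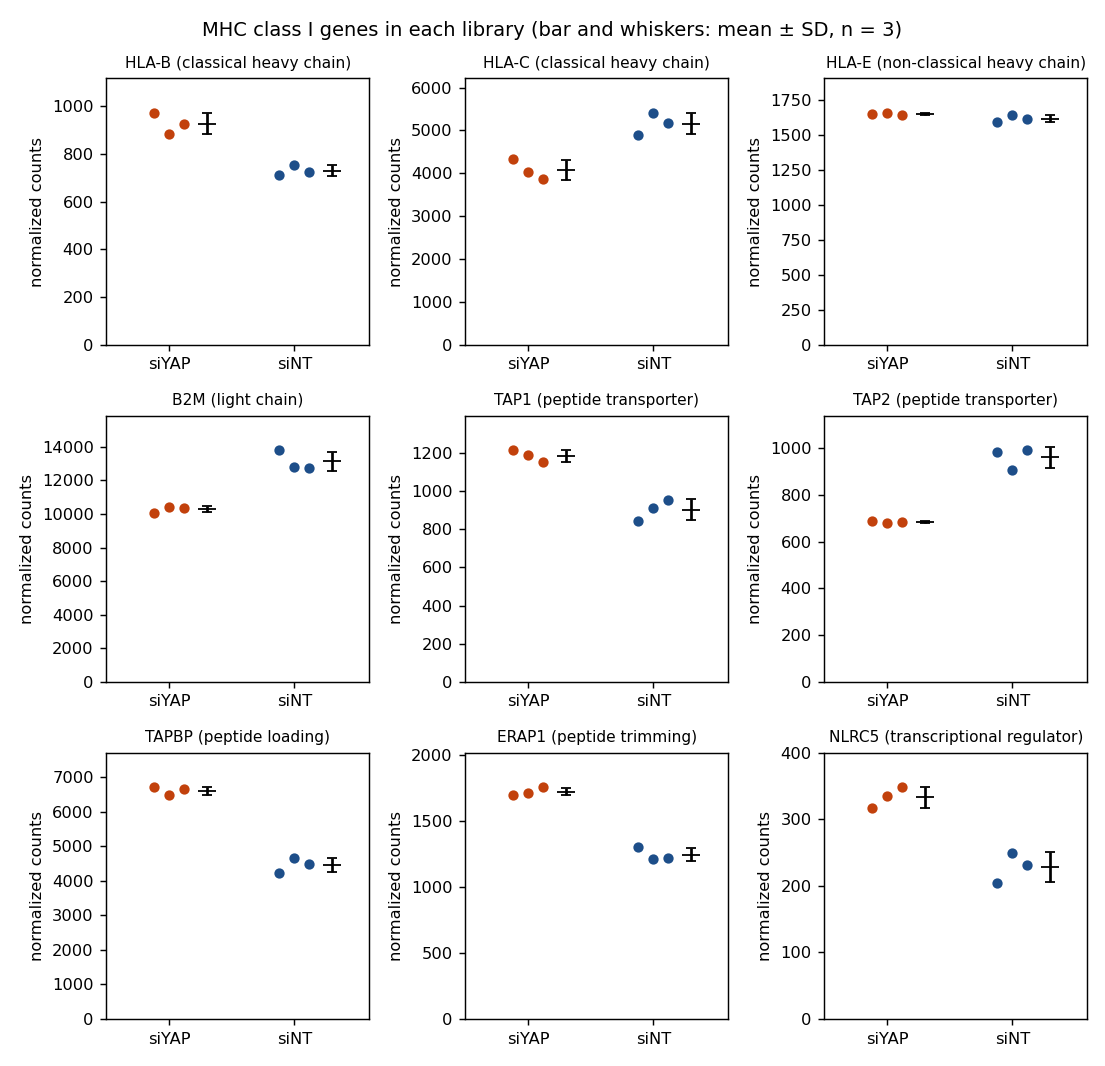
Normalized counts (y axis, from 0 and scaled per gene) of the 9 class I genes in each siYAP library (left, orange points) and siNT library (right, blue points), with the mean ± SD of the 3 libraries beside each group. The siYAP points of TAPBP lie at 6475 to 6700.4, above siNT points at 4238 to 4651, and those of TAP2 at 680.1 to 688 lie below siNT points at 909.6 to 992, while the groups for HLA-E are separated by less than 2 normalized counts.

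The heavy chains form the groove that holds the peptide, and the classical ones vary widely between people. HLA-B (ENSG00000234745), a classical heavy chain, had 971, 883 and 926 normalized counts in siYAP and 712, 755 and 723 in siNT. Every siYAP library lay above every siNT library. Its mean was 927 ± 43.6 in siYAP and 729.8 ± 22.2 in siNT (SD, n = 3 each), a log2 fold change of 0.34 (SE 0.0601, limma adjusted p = 4.17e-05).

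HLA-C (ENSG00000204525), the other classical heavy chain of the set and a ligand of killer immunoglobulin-like receptors, went the other way. It had 4326, 4019 and 3872 normalized counts in siYAP and 4901, 5402 and 5167 in siNT, so that the highest siYAP library was below the lowest siNT library. Its mean was 4072 ± 232 in siYAP and 5157 ± 251 in siNT (SD, n = 3 each), a log2 fold change of -0.34 (SE 0.0496, limma adjusted p = 4.01e-06).

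HLA-E (ENSG00000204592), a non-classical heavy chain that shows leader peptides of other class I proteins to NKG2A receptors, had 1650.2, 1657 and 1644.5 normalized counts in siYAP and 1595, 1643 and 1612 in siNT. The lowest siYAP library was barely above the highest siNT library. Its log2 fold change was 0.03 (95% interval -0.07 to 0.13, limma adjusted p = 0.622), and it reached 0.12 with an adjusted p of 0.0407 only with libraries scaled to equal totals.

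B2M (ENSG00000166710), the invariant light chain that every class I heavy chain needs to reach the surface, had 10073, 10443 and 10341 normalized counts in siYAP and 13795, 12819 and 12768 in siNT. All siYAP libraries were lower. Its mean was 10285.5 ± 191 in siYAP and 13127 ± 579 in siNT (SD, n = 3 each), which is 78.4% of the siNT mean and a log2 fold change of -0.35 (SE 0.0420, limma adjusted p = 2.63e-07).

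The related gene HLA-F, a non-classical chain, was higher in siYAP. It was low, at 48.0, 42.4 and 53.3 normalized counts in siYAP and 17.8, 26.7 and 16.9 in siNT, with a log2 fold change of 1.21 (limma adjusted p = 9.23e-05). HLA-G was not found by symbol among the listed genes.

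The transporter subunits, which work only as a pair, moved in opposite directions. TAP1 (ENSG00000168394) had 1215, 1190.3 and 1153 normalized counts in siYAP and 846, 912 and 952 in siNT. TAP2 (ENSG00000204267) had 688, 680.1 and 685 normalized counts in siYAP and 983, 909.6 and 992 in siNT. For both genes the groups were apart, with siYAP above for TAP1 and below for TAP2.

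TAP1 averaged 1186 ± 31.4 normalized counts in siYAP and 903 ± 53.6 in siNT (SD, n = 3 each), a log2 fold change of 0.39 (SE 0.0581, limma adjusted p = 4.80e-06). TAP2 averaged 684 ± 3.91 normalized counts in siYAP and 962 ± 45.3 in siNT (SD, n = 3 each), a log2 fold change of -0.49 (SE 0.0594, limma adjusted p = 3.25e-07). TAP2 thus fell the furthest of the called class I genes, to 71.2% of the siNT mean.

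TAPBP (ENSG00000231925), the tapasin gene, had the greatest fitted change of the set, close to that of NLRC5. It had 6700.4, 6475 and 6642 normalized counts in siYAP and 4238, 4651 and 4477 in siNT, with every siYAP library above every siNT library. Its mean was 6606 ± 117 in siYAP and 4455 ± 207 in siNT (SD, n = 3 each), a log2 fold change of 0.57 (SE 0.0448, limma adjusted p = 3.82e-10). Of all tested genes, 74.9% changed by less on the log2 scale.

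ERAP1 (ENSG00000164307), the aminopeptidase of the endoplasmic reticulum that shortens peptides, had 1695.5, 1713 and 1752 normalized counts in siYAP and 1302, 1213 and 1217 in siNT. The groups were well apart, with siYAP above. Its mean was 1720.3 ± 28.9 in siYAP and 1244 ± 50.001 in siNT (SD, n = 3 each), a log2 fold change of 0.47 (SE 0.0513, limma adjusted p = 7.06e-08).

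NLRC5 (ENSG00000140853), the class I transactivator, was the lowest of the 9 genes and still well above the detection limit. It had 317, 335 and 348 normalized counts in siYAP and 204, 249 and 231 in siNT, with no overlap and siYAP above. Its mean was 333 ± 15.5 in siYAP and 228 ± 22.6 in siNT (SD, n = 3 each), a log2 fold change of 0.55 (SE 0.0918, limma adjusted p = 2.40e-05). Of the genes whose windows held the X2 core, HLA-B was higher and HLA-C and TAP2 were lower in siYAP. Of the 5 genes whose windows held the spaced GAAA pair, TAP1, TAPBP and ERAP1 were higher and TAP2 and B2M lower in siYAP. Whether NLRC5 or factors that read these letters had a part in the changes was not tested.

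**Figure D2:**
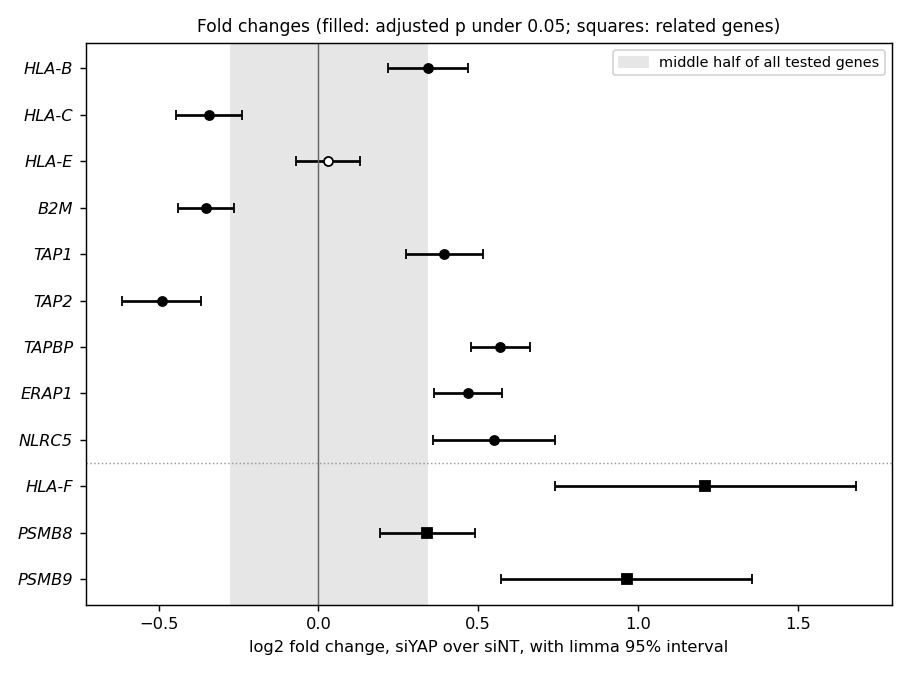
Log2 fold change of siYAP over siNT (x axis) with limma's 95% interval for the 9 class I genes (circles, above the dotted line) and for HLA-F, PSMB8 and PSMB9 (squares), with filled symbols for an adjusted p under 0.05. The grey band spans the quartiles of all tested genes, -0.27 to 0.34. TAP2 lies at -0.49 and TAPBP at 0.57, and the interval of HLA-E alone crosses 0.

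Levels were compared between genes per kilobase of the main annotated transcript. In siYAP the order was B2M (6033 ± 112 normalized counts per kb), TAPBP (3499 ± 62.0), HLA-C (2651 ± 151), HLA-E (635 ± 2.45), HLA-B (599 ± 28.2), TAP1 (401 ± 10.6), ERAP1 (313 ± 5.25), TAP2 (274 ± 1.57) and NLRC5 (48.9 ± 2.27). In siNT it was B2M (7699 ± 339 normalized counts per kb), HLA-C (3357 ± 163), TAPBP (2360 ± 110), HLA-E (622 ± 9.37), HLA-B (472 ± 14.3), TAP2 (385 ± 18.1), TAP1 (305 ± 18.1), ERAP1 (226 ± 9.10) and NLRC5 (33.4 ± 3.31). TAPBP therefore stood above HLA-C, and TAP1 and ERAP1 above TAP2, in siYAP, with the reverse in siNT. These orders depend on the single transcript length taken for each gene. Before division by length, ERAP1 was above TAP2 in siNT too (means of 1244 and 962 normalized counts). The siNT means of TAPBP and TAP1 stayed below those of HLA-C and TAP2. The closest neighbours in either order were HLA-E and HLA-B in siYAP, whose means differed by little more than their SDs together.

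Ratios within a library do not depend on its size factor, and they showed the same splits. TAP1 per TAP2, in counts per kb, was 1.49, 1.48 and 1.42 in siYAP and 0.726, 0.846 and 0.810 in siNT. By this measure the more abundant transcript of the transporter pair was TAP1 in all siYAP libraries and TAP2 in all siNT libraries. Which one leads depends on the transcript length taken for each gene (2959 bases for TAP1, 2497 for TAP2). The split between siYAP and siNT does not depend on these lengths. In normalized counts not divided by length, TAP2 led in siNT replicates 1 and 3. In siNT replicate 2, TAP1 was at 911.8 and TAP2 at 909.6. HLA-B per HLA-C was 0.223, 0.218 and 0.238 in siYAP and 0.144, 0.139 and 0.139 in siNT. TAPBP per B2M averaged 0.580 ± 0.0204 in siYAP and 0.307 ± 0.0264 in siNT (SD, n = 3 each).

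The sum of HLA-B, HLA-C and HLA-E, most of it HLA-C, was 6947, 6559.7 and 6443 normalized counts in siYAP and 7207, 7799.7 and 7502 in siNT, with every siYAP library below every siNT library. Its makeup shifted. HLA-B gave 15.4 ± 0.517% of the sum per kb in siYAP and 10.6 ± 0.166% in siNT, HLA-C 68.2 ± 0.951% in siYAP and 75.4 ± 0.534% in siNT, and HLA-E 16.4 ± 0.699% in siYAP and 13.98 ± 0.381% in siNT (SD, n = 3 each). These 3 heavy chains together per B2M came to 0.690, 0.624 and 0.619 in siYAP and 0.527, 0.617 and 0.594 in siNT, where the lowest siYAP library was barely above the highest siNT library. For each of the 4 ratios compared the groups did not overlap, and the two-sided exact permutation test gave p = 0.1, the smallest that 3 libraries against 3 can give.

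Reads of these genes could be shared in part. Of the 50-base windows along the reference transcripts, 2.20% of those of HLA-B, 3.77% of HLA-C and 1.41% of HLA-E also occurred in another of HLA-B, HLA-C, HLA-E and HLA-F, and sharing with further class I genes would add to this. The alleles that CAOV2 carries can differ from the reference, and how the counting treated them is not given in the sources used here, so the values of the heavy chains are uncertain to that degree. In the GENCODE 29 annotation (GRCh38), TAP1 (chr6:32845209-32853978, minus strand) shares 456 exonic bases with the antisense gene PSMB8-AS1, and ERAP1 (chr5:96760810-96808100, minus strand) shares 299 with CAST on the other strand. Of the related genes, HLA-F shares 535 exonic bases with HLA-F-AS1 and PSMB8 shares 618 with PSMB8-AS1, both on the other strand, and PSMB9 shares 139 with PSMB8 on the other strand and 174 with PSMB8-AS1 on its own. The annotated gene record of HLA-B spans HLA-C, and they share 35 exonic bases on the same strand. The library kit keeps the strand, but the strand setting of the counting is not given in the sources used here. TAP2 lies at chr6:32821833-32838780, TAPBP at chr6:33299694-33314387, HLA-C at chr6:31268749-31272130 and the main HLA-B transcript at chr6:31353872-31357187, all on the minus strand. HLA-E lies at chr6:30489467-30494205, B2M at chr15:44711487-44718877 and NLRC5 at chr16:56989485-57083531, all on the plus strand.

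The other genes of the pathway and related ligands came from 10 lists of 99 symbols, 84 of them measured. Of these 84, 31 were higher, 16 lower and 37 not called, so that 55.95% were called, beside 56.8% of all tested genes. With libraries scaled to equal totals 41 were higher and 8 lower. That scaling also moved the balance within single lists described next, to 3 higher and none lower for the immunoproteasome, 6 higher and 3 lower for the regulators, 8 higher and 1 lower for interferon signalling, 3 higher and 1 lower for the cytosolic peptidases, 4 higher and 1 lower for turnover control and 5 higher and 2 lower for the T and NK cell ligands.

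Further loading factors of the endoplasmic reticulum differed little: of TAPBPL, CALR, CANX, PDIA3, ERAP2 and HM13, none was higher, 1 was lower and 5 were not called, with a median log2 fold change of -0.04. The lower gene was the chaperone CALR, at 49102 ± 1663 normalized counts in siYAP and 52557 ± 952 in siNT (SD, n = 3 each; log2 fold change -0.10, limma adjusted p = 0.0293). That call was lost without siYAP replicate 2 (adjusted p = 0.175) or 3 (0.0989), without siNT replicate 2 (0.0997) or 3 (0.103), with equal totals (0.810) and in 4 other settings. With equal totals the list had 2 higher genes and none lower, the chaperone CANX (adjusted p = 0.00148) and the signal peptide peptidase HM13 (0.0144), and CANX also passed as higher with upper-quartile factors (0.0464) and without siNT replicate 1 (0.00915).

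Of 6 immunoproteasome genes, 2 were higher, 1 lower and 3 not called (median log2 fold change 0.11). PSMB9, an inducible catalytic subunit encoded next to TAP1, had 68.0, 75.01 and 73.2 normalized counts in siYAP and 28.3, 47.0 and 36.3 in siNT, a log2 fold change of 0.96 (limma adjusted p = 0.000153). PSMB8, another inducible subunit, averaged 509 ± 6.06 normalized counts in siYAP and 402 ± 18.6 in siNT (SD, n = 3 each), a log2 fold change of 0.34 (limma adjusted p = 0.000296). The groups did not overlap for either gene.

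The third inducible subunit, PSMB10, had a log2 fold change of 0.25 (limma adjusted p = 0.0503), and it passed in 8 of the 17 alternatives, among them equal totals (0.0103) and without siNT replicate 2 (0.00735) or siYAP replicate 3 (0.0333). PSME2, a subunit of the proteasome activator, was lower at -0.12 on the log2 scale (limma adjusted p = 0.0271). The PSME2 call was lost without siYAP replicate 2 (adjusted p = 0.0884) or 3 (0.118) and without siNT replicate 2 (0.0686) or 3 (0.0671), with equal totals (0.531) and in 3 other settings.

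Of 15 further regulators of class I transcription, 5 were higher, 5 lower and 5 not called, with a median log2 fold change of -0.07. RFX5, which binds the X element and recruits NLRC5, was higher at 0.33 (limma adjusted p = 3.53e-06), and NFYA, a subunit of the factor that binds the CCAAT box, was lower at -0.31 (limma adjusted p = 9.07e-06). EZH2 and SUZ12, subunits of the Polycomb complex known to silence class I genes in some tumours, were both lower. EZH2 averaged 2103 ± 68.6 normalized counts in siYAP and 3309 ± 75.9 in siNT (SD, n = 3 each; log2 fold change -0.65, limma adjusted p = 7.40e-11). SUZ12 had a log2 fold change of -0.71 (limma adjusted p = 2.36e-09), and EED, the other core subunit, one of -0.03 (limma adjusted p = 0.671).

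Of 13 genes of interferon receptors and JAK-STAT signalling, 6 were higher, 2 lower and 5 not called (median log2 fold change 0.18). IFNAR2, a chain of the type I interferon receptor, averaged 1696 ± 54.6 normalized counts in siYAP and 648 ± 40.4 in siNT (SD, n = 3 each; log2 fold change 1.39, limma adjusted p = 1.20e-14). Its kinases JAK1 and TYK2 were higher too, at 0.72 (limma adjusted p = 8.38e-12) and 0.36 (limma adjusted p = 1.74e-06) on the log2 scale. PTPN1, a phosphatase that restrains JAK signalling, was lower at -0.16 (limma adjusted p = 0.00288), a call lost with equal totals (adjusted p = 0.138). The other lower gene was SOCS3, a feedback inhibitor, at 154, 155 and 150.3 normalized counts in siYAP and 176, 197 and 210.3 in siNT (log2 fold change -0.34, limma adjusted p = 0.00881), a result that did not pass when siNT replicate 3 was left out (adjusted p = 0.0515). Among the factors further along, IRF1, which is counted with the regulators and not among these 13 genes, was lower at -0.20 (limma adjusted p = 0.0107), and STAT2 had a log2 fold change of 0.11 (limma adjusted p = 0.1002). IRF1 no longer passed when siNT replicate 3 was left out (adjusted p = 0.0808) or with equal totals (0.137), and STAT2 passed as higher without siYAP replicate 3 (0.04795) and with equal totals (0.00544).

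Of 9 cytosolic peptidases, which trim or destroy peptides before transport, 3 were higher, 3 lower and 3 not called (median log2 fold change -0.06). IDE, the insulin-degrading enzyme, had a log2 fold change of 0.83 (limma adjusted p = 3.85e-12), LAP3 of 0.22 (limma adjusted p = 0.000598), THOP1 of -0.26 (limma adjusted p = 0.000169) and DPP9 of -0.19 (limma adjusted p = 0.00179). The DPP9 call was lost with equal totals (adjusted p = 0.0654).

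Of 9 genes that control the surface level and turnover of class I proteins, 3 were higher, 2 lower and 4 not called (median log2 fold change -0.03). SUSD6 and TMEM127, membrane proteins that with WWP2 direct class I molecules to degradation, had log2 fold changes of 0.64 (limma adjusted p = 2.58e-09) and 0.21 (limma adjusted p = 0.000300), and MARCHF4, a membrane ubiquitin ligase, one of 0.31 (limma adjusted p = 0.00470). AP1M2, a subunit of a sorting adaptor of epithelial cells, was lower at -0.36 (limma adjusted p = 0.00655). WWP2 itself was at -0.03 (limma adjusted p = 0.693).

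Of 12 measured class I-like genes and ligands of the NKG2D receptor, 6 were higher, none lower and 6 not called (median log2 fold change 0.30). MR1, which shows vitamin B metabolites to MAIT cells, had 39.0, 38.5 and 39.0 normalized counts in siYAP and 6.28, 7.48 and 3.63 in siNT, with a log2 fold change of 2.60 (limma adjusted p = 1.87e-07). FCGRT, the heavy chain of the neonatal Fc receptor, was higher at 0.63 (limma adjusted p = 1.25e-08). The stress ligands ULBP1 and MICA were higher at 0.95 (limma adjusted p = 1.13e-06) and 0.39 (limma adjusted p = 5.56e-06). MR1 and FCGRT proteins pair with B2M, whose own transcript was lower in siYAP.

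Class II genes were near the detection limit, with 4 of 14 measured, 2 higher, none lower and 2 not called. CTSS, the protease that degrades the invariant chain, averaged 18.1 ± 3.33 normalized counts in siYAP and 4.79 ± 0.579 in siNT (SD, n = 3 each; limma adjusted p = 0.000264). CD74, the invariant chain, averaged 15.5 ± 3.204 normalized counts in siYAP and 6.10 ± 4.44 in siNT (SD, n = 3 each; limma adjusted p = 0.00860), and this call was lost in a fit with neither trend nor robust variance (adjusted p = 0.0654).

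Of 9 measured ligands of T and NK cell receptors, 3 were higher, 2 lower and 4 not called (median log2 fold change 0.13). HHLA2, a B7 family ligand, averaged 163 ± 13.97 normalized counts in siYAP and 6.66 ± 1.24 in siNT (SD, n = 3 each; log2 fold change 4.43, limma adjusted p = 7.14e-14). CD47, the signal that restrains phagocytes, was higher at 0.58 on the log2 scale (limma adjusted p = 1.89e-08). CD274, the gene of PD-L1, was low in both groups and lower in siYAP, at 8.16, 3.95 and 9.51 normalized counts in siYAP and 18.8, 26.7 and 15.7 in siNT (log2 fold change -1.42, limma adjusted p = 0.00175). ICAM1, an adhesion ligand, was lower at -0.44 (limma adjusted p = 0.0102), a call lost without siNT replicate 2 (adjusted p = 0.0531).

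**Figure D3:**
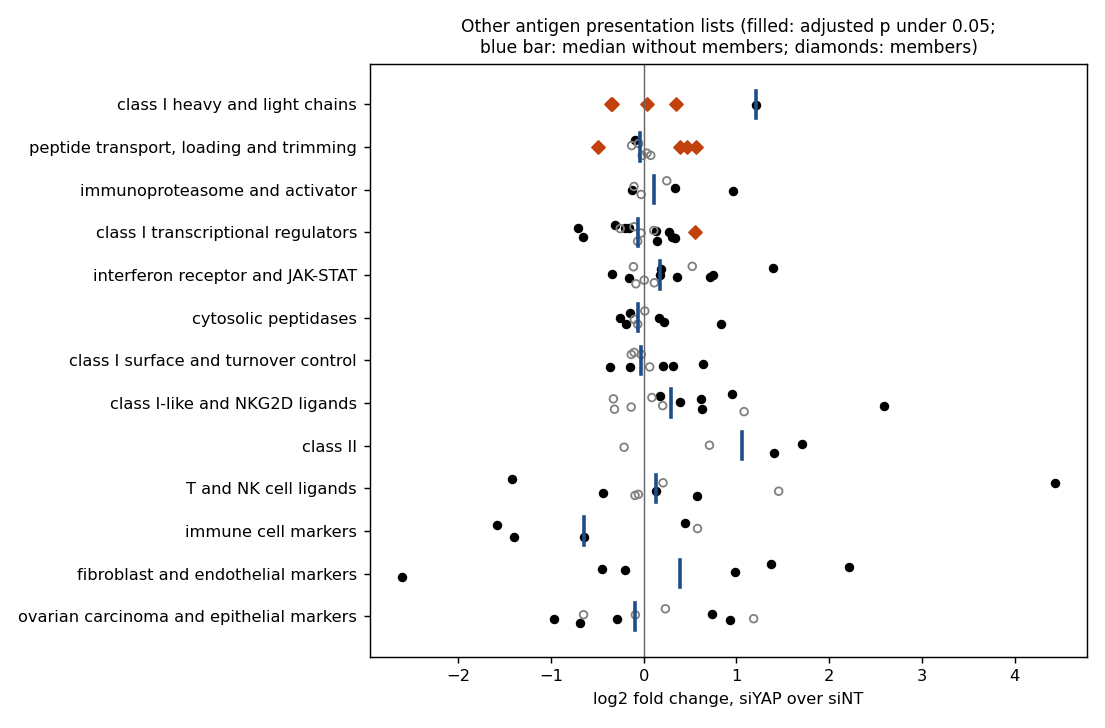
Log2 fold change of siYAP over siNT (x axis) for each measured gene of 13 lists (rows), with black points for an adjusted p under 0.05, open points for genes not called, orange diamonds for the 9 class I genes and a blue bar at the median of the other genes of each list. The class I-like list has 6 called genes, all on the higher side, HHLA2 stands furthest out at 4.43, and the loading list other than the diamonds lies close to 0.

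Markers of other cell types were read in the same way. Of 13 immune cell markers, 5 were measured, of which 1 was higher, 3 lower and 1 not called, and their summed level was 164 to 179 normalized counts in siYAP and 214 to 223 in siNT. The B cell gene CD79A averaged 24.04 normalized counts in siYAP and 64.6 in siNT, the myeloid genes LYZ 6.35 in siYAP and 20.9 in siNT and CD68 37.3 in siYAP and 58.3 in siNT, and CD14, the higher one, 84.9 in siYAP and 61.9 in siNT. None of these 5 was at 0 in all libraries, and PTPRC and the T cell markers were not found by symbol among the listed genes. Of 11 fibroblast and endothelial markers, 6 were measured, with 3 higher and 3 lower. Their sum was 14402 to 14821 normalized counts in siYAP and 6465 to 7004 in siNT, made up mostly of the matrix genes LUM (log2 fold change 1.37, limma adjusted p = 4.10e-15) and COL3A1 (log2 fold change 2.22, limma adjusted p = 4.30e-17). ESAM, an endothelial adhesion gene, averaged 1296 normalized counts in siYAP and 1774 in siNT, and COL1A2, a collagen gene, was close to 1 read per library in siYAP, at 1.25 in siYAP and 12.6 in siNT.

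Of 12 ovarian carcinoma and epithelial markers, 9 were measured, with 2 higher, 3 lower and 4 not called. Their sum was 72616 to 79053 normalized counts in siYAP and 96360 to 104808 in siNT. The keratins KRT7 and KRT18 were lower at -0.97 (limma adjusted p = 2.68e-14) and -0.68 (limma adjusted p = 8.27e-12), and the junction genes CDH1 and EPCAM higher at 0.93 (limma adjusted p = 2.38e-09) and 0.74 (limma adjusted p = 1.21e-09). The part of these marker shifts in the class I values was not tested.

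Many class I genes sit in the MHC region of chromosome 6, and their neighbours give the local background. From HLA-F to HLA-DPB1 (GRCh38 chr6:29722775-33087201), 107 genes were listed, of which 22 were higher, 46 lower and 39 not called, with a median log2 fold change of -0.17. Among the 96 of them that were in no list, 15 were higher, 44 lower and 37 not called, with a median of -0.22. The neighbours with the smallest p were GPSM3, a regulator of G protein signalling, lower at -2.36 (limma adjusted p = 1.16e-15), IER3, an immediate early gene, lower at -1.17 (limma adjusted p = 8.14e-15), TUBB, a beta-tubulin, lower at -0.68 (limma adjusted p = 1.12e-12), and TRIM15, higher at 1.71 (limma adjusted p = 2.64e-12). TAPBP lies outside this interval.

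**Figure D4:**
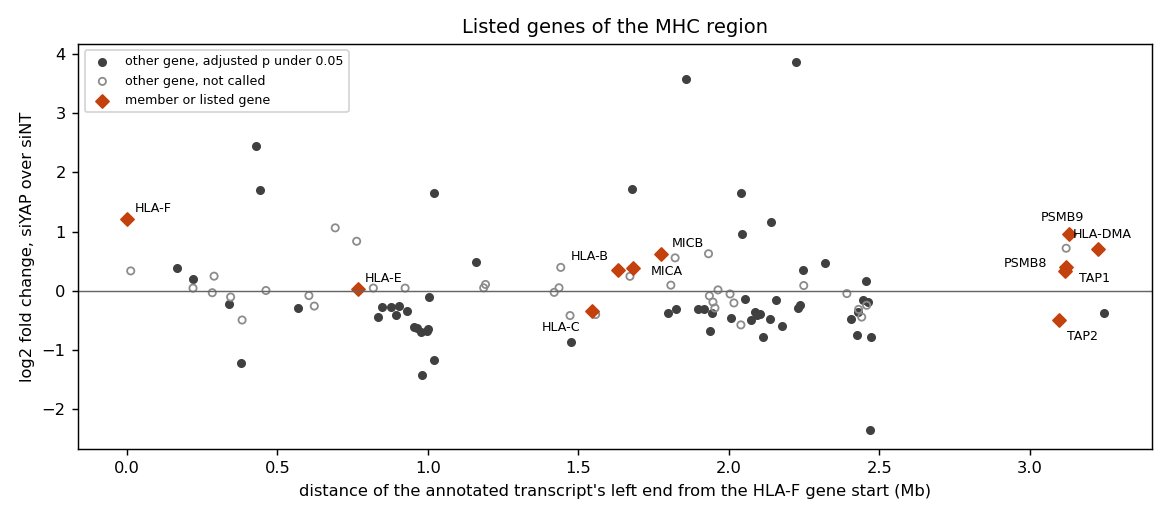
Log2 fold change of siYAP over siNT (y axis) of each listed gene of the MHC region against the distance in Mb of its transcript's left end from the start of HLA-F (x axis), with orange diamonds for class I and other listed antigen presentation genes whether or not called, dark points for other called genes and open points for other genes not called. HLA-B at 0.34 and HLA-C at -0.34 lie beside each other, as do TAP1 at 0.39 and TAP2 at -0.49, among neighbours whose median is -0.22.

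The profile of TAPBP over the 6 libraries was compared with those of 12518 other genes averaging 50 or more normalized counts, as the root mean square distance of centred log2 values. The nearest were PXDC1 (distance 0.0221), ABCC10 (0.0243), an ABC transporter, and TINAGL1 (0.0253), a matrix protein. PXDC1 had 1779, 1724 and 1703 normalized counts in siYAP and 1101, 1238 and 1158 in siNT. The log2 fold changes of these genes were 0.58 for PXDC1, 0.54 for ABCC10 and 0.56 for TINAGL1, each near the 0.57 of TAPBP. These genes were picked for the smallest distance over the same 6 libraries, so such nearness follows from the choice.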

How the data were processed

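The deposited table holds a signal value per gene and library, which the authors made with FastQC, HISAT2, HTSeq and DESeq2 and the builds hg19 and mm9, per the submitters' processing notes; nothing read here states versions, annotation, the role of each build or how genes were kept. The deposited signal values were counts divided by a size factor: 100% were whole multiples of what 1 read was worth (0.906 to 1.21) within a tolerance of 0.01 of a read. Groups came from the sample titles. Symbols came from a name table by Ensembl ID (16662 of 17211 matched) and GENCODE 29 (16743 in all).

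Genes reaching 1 in 3 or more libraries were tested with limma 3.58.1 (trend and robust variance, R 4.3.3) on log2(value + 1) with Benjamini-Hochberg adjustment over 17200 genes. Fold changes are on that scale, which understates changes of low genes. The scripts were tested on simulated data. Alternatives used other pseudocounts, filters, scalings and variance models, a replicate block, libraries left out, and edgeR 4.0.16 and DESeq2 1.42.0 on the recovered reads. Coordinates and transcript lengths are from GENCODE 29 on GRCh38, not the authors' build.

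The class I genes and the lists were chosen with earlier results of these data known. Outside the class I genes and YAP1, the genes described were up to 4 called genes of smallest p in each list and in the MHC region, and the 3 nearest profiles to the called class I gene of greatest change. CANX, HM13, SOCS3, PSMB10, EED, STAT2, IRF1, WWP2, KRT8, PAX8 and MUC16 were added after their values were seen. Some genes of the lists are not reported here.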

Additional observations from a re-analysis of the deposited data

How the results depend on the processing

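The 8 called class I genes kept their direction and their call under all 17 alternatives, with a greatest adjusted p of 0.00845, for HLA-C with neither trend nor robust variance. Their log2 fold changes ranged from 0.31 to 0.43 for HLA-B, -0.39 to -0.25 for HLA-C, -0.37 to -0.26 for B2M, 0.35 to 0.48 for TAP1, -0.53 to -0.40 for TAP2, 0.53 to 0.66 for TAPBP, 0.45 to 0.56 for ERAP1 and 0.47 to 0.64 for NLRC5. HLA-E ranged from 0.02 to 0.12 and passed the test only with libraries scaled to equal totals (0.12, adjusted p = 0.0407), a scaling that raises the median log2 fold change of all genes to 0.09 and the higher share of calls to 62.1%, against 50.4%. Genes called over the table ranged from 8763 to 9827 with a library left out, and were 9582 with edgeR and 8778 with DESeq2 on the recovered reads. No called gene named from the lists changed direction. CD14, a myeloid marker, lost its call without siYAP replicate 1 (adjusted p = 0.118) or siNT replicate 1 (0.0825) and with DESeq2 (0.0613). Calls among the 6 other loading factors numbered from 0 to 2, against 1, and among the 4 class II genes 1 with neither trend nor robust variance, against 2. Calls among the 13 interferon receptor and JAK-STAT genes fell to 5, against 8, with that setting and without siNT replicate 3.

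The replicate numbers did not pair the samples: same-numbered libraries deviated from their group means with correlations of -0.338, -0.00827 and -0.0685 over 12519 genes. With the replicate block 9141 genes were called, 8 class I genes among them, and 55 of the 104 list genes, cell type markers included, against 62. Precision rests on 3 libraries a group, and genes with few reads per library, such as the class II genes, are limited by counting error.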
